A study of Mus musculus with 2 samples.

Results

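Tubulin isotypes are the closely related proteins from which microtubules are built. Of 10 named tubulin genes (Tuba1a, Tuba1b, Tuba1c, Tuba4a, Tuba8, Tubb2a, Tubb2b, Tubb5, Tubb6 and Tubg1), 8 had a probe set annotated with their symbol alone on the arrays, out of 12393 genes with such a probe set, and these 8 genes were read by 12 probe sets. They were chosen by name with the difference in Tubb2a already known, so the values of Tubb2a describe the 2 arrays and support nothing further. Tuba1b and Tuba1c had no probe set of their own symbol alone. The question addressed was whether Tubb2a differed between the diets alone or together with the rest of its family.

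Liver RNA of male mice deficient in apolipoprotein E, on a C57BL/6J background 2 months old when put on the diets, was hybridized as biotin-labelled cRNA to Affymetrix 3' expression arrays. The control array held RNA pooled from mice on a semipurified Western diet, eaten for 11 weeks. The oleanolic acid array held RNA pooled from mice given that diet with 0.01% of oleanolic acid, a plant triterpenoid, which gave 10 mg per kg per day, also for 11 weeks. The growth protocol of both samples names oleanolic acid, so the groups were taken from the titles and the diet labels. Each diet is thus 1 pool on 1 array, the number of mice pooled is not given in the sources used here, and no p-value can be computed. Both groups lack apolipoprotein E and eat the Western diet, so no comparison with normal mice or another diet is part of the data. Apoe itself had signals of 193.8 and 232.2 on 1 probe set, whose place relative to the disrupted part is not given, so this is no check of the genotype.

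Microtubules are hollow polymers of alpha- and beta-tubulin heterodimers, and gamma-tubulin starts their growth at organizing centres. In hepatocytes they carry secretory vesicles, including those loaded with lipoproteins and plasma proteins, and organize transport towards the bile canaliculus. The isotypes share most of their coding sequence and differ mainly at the acidic carboxy-terminal tail, where enzymes modify the polymer. Each isotype is made from its own gene, and the genes differ in the tissues and states in which they are used. In the RefSeq annotation of GRCm38.p6, Tubb2a and Tubb2b are neighbouring protein-coding genes on chromosome 13, and Tuba1b, Tuba1a and Tuba1c follow each other on chromosome 15.

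The 250 bases before the annotated start site are shown for Tubb2a, for Tuba4a and for Tubb5. Tubb2a is the isotype with the largest difference, and the other two also had 2 measured probe sets each. The sequences are from RefSeq, build GRCm38.p6, written 5' to 3' on the strand of the gene, and 7 of the 10 genes had an entry. Tubb6, Tubg1 and Tubb2b, the neighbour of Tubb2a, had none and were not searched. Capitals mark matches, on either strand, to 6 motifs. These are the TATA box (letters TATAAA), the cAMP response element (letters TGACGTCA), the GC box (letters GGGCGG), the CAAT box (letters CCAAT), the E-box (letters CACGTG) and the core of the antioxidant response element (letters TGACNNNGC), whose opening letters are those of the cAMP response element.
Tubb2a, chr13:34078009-34078258, minus strand: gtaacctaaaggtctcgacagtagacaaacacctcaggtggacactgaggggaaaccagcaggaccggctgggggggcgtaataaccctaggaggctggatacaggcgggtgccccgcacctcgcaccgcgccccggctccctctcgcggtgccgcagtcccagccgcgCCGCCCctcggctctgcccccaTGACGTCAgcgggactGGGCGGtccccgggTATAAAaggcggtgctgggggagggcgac
Tuba4a, chr1:75219295-75219544, minus strand: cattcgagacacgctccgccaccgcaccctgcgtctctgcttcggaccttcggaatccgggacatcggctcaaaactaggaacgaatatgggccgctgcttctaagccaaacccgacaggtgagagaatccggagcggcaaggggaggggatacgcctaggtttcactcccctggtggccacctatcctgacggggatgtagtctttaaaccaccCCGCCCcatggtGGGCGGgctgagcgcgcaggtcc
Tubb5, chr17:35838302-35838551, minus strand: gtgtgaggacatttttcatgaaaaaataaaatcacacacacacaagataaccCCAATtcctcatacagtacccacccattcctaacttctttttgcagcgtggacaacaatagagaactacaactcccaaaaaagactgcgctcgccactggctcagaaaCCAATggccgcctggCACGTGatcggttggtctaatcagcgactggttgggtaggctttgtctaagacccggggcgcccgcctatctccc

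Tubb2a was the one sequence among these 7 entries with a TATA box, whose first base lay 29 bases before the start, and with a cAMP response element, 59 bases before it. It also held the GC box at 43 and 81 bases before the start. Tuba4a held the GC box at 23 and 35 bases before the start and no other motif searched. Tubb5 held the CAAT box at 90 and 198 bases and the E-box at 75 bases before its start. Of 32851 promoter windows of 250 bases in the same table, 12.4% held the TATA box, 1.55% the cAMP response element, 32.7% the GC box, 33.9% the CAAT box, 6.02% the E-box and 10.2% the antioxidant response element core. A match describes letters in these windows and says nothing of which factor binds there.

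The beta-tubulins are described first. Tubb2a, a class II beta-tubulin with high expression in brain and variable expression elsewhere, had 2 probe sets. Probe set 1427347_s_at read 376.9 units of signal on the control array against 1354.8 with oleanolic acid, a 3.59-fold difference or 1.85 as a log2 ratio. Probe set 1427838_at read 35.5 against 75.0 units, a 2.11-fold difference or 1.08 as a log2 ratio. Both were higher in the oleanolic acid array, by sizes that differed by 0.77 on the log2 scale.

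Before log2 was taken, signals below the 25th percentile of their array (10.7 for control, 10.1 for oleanolic acid) were raised to it, and this percentile is called the floor. A probe set counted as measured when it was at or above the array median (61.5 and 59.3) on at least 1 array. Log2 ratios are oleanolic acid over control throughout, and a gene's value averages its measured probe sets. For Tubb2a it was 1.46 ± 0.54 (SD, n = 2 probe sets), 2.76-fold, the rank 10 from the highest among 7137 measured genes. Probe set 1427838_at entered through the oleanolic acid array, where it was higher. With both arrays required to reach the median, the log2 ratio of Tubb2a rested on 1427347_s_at and was 1.85. The same value came from the brightest probe set alone. With signals raised to the array median, it was 1.07.

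Agreement between the probe sets of Tubb2a was lower than for most genes. For the 2427 genes that had 2 or more measured probe sets, the median gap between their highest and lowest log2 ratio was 0.17, and 3.05% had a gap at least as large as that of Tubb2a. The gaps of Tuba4a (0.15) and Tubb5 (0.07) were below that median. Of 10707 measured probe sets with 1 symbol, 3 had a higher log2 ratio than 1427347_s_at and 35 a higher one than 1427838_at. Above 1.5 lay 0.112% of these probe sets. Among the 4239 with a control signal of at least 376.9, 3 were above 1.5, 1427347_s_at included, and 1 exceeded it.

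**Figure D1:**
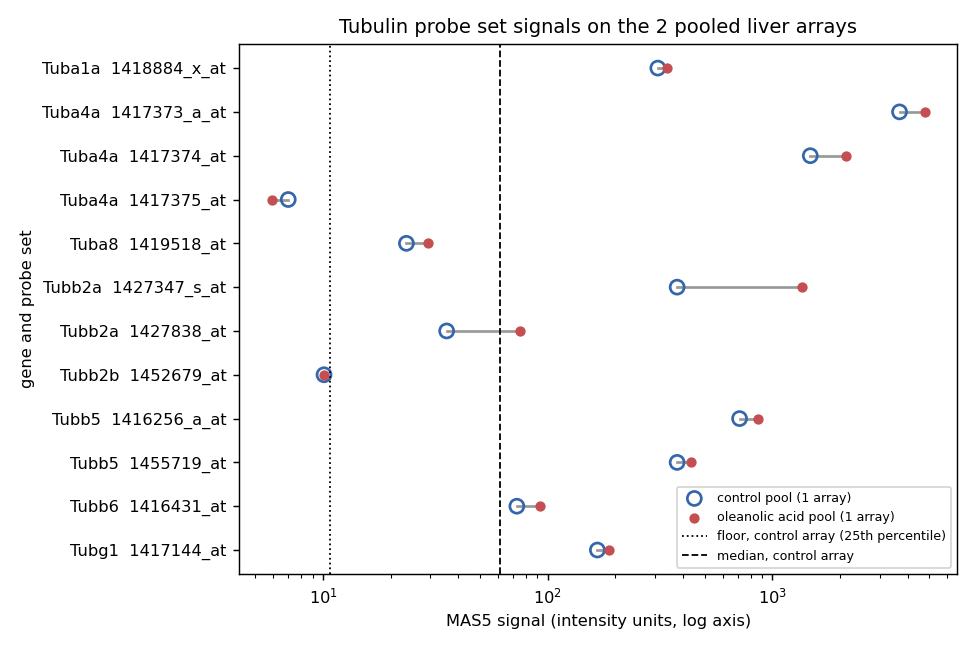
MAS5 signal (horizontal log axis, intensity units) of the 12 probe sets of the tubulin genes in the control array (open blue circles) and the oleanolic acid array (filled red circles), 1 array each, with dotted and dashed lines at the floor and the median of the control array. The longest segment is Tubb2a 1427347_s_at, from 376.9 to 1354.8. Signals are compared along a row and not between probe sets.

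The remaining measured beta-tubulins had smaller log2 ratios. Tubb5, the class I beta-tubulin found in most cells, had signals of 714.7 (control) and 863.8 (oleanolic acid) for 1416256_a_at. Its probe set 1455719_at had signals of 376.8 and 432.9. Its log2 ratio was 0.24 ± 0.05 (SD, n = 2 probe sets), so both probe sets were slightly higher in the oleanolic acid array. Tubb6, a class V beta-tubulin, had signals of 72.9 and 92.7 on 1 probe set, a log2 ratio of 0.35. For a gene with 1 measured probe set the error given is the pooled SD between probe sets of genes in the same of 4 bands of mean signal, called the probe set SD, which is 0.27 for Tubb6. Tubb2b, the neighbour of Tubb2a, known for its role in the developing brain, had signals of 10.1 and 10.1 on its 1 probe set, at or below the floor on both arrays, so it has no ratio.

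Alpha-tubulins were higher in the oleanolic acid array in each measured case, with gene means differing by 1.37-fold or less. Tuba4a, an alpha-tubulin whose gene does not encode the terminal tyrosine of most alpha-tubulins, had signals of 3682.5 and 4770.8 for 1417373_a_at. Its probe set 1417374_at had signals of 1475.7 and 2122.4. The log2 ratio was 0.45 ± 0.11 (SD, n = 2 probe sets), the highest of the named isotypes after Tubb2a. Its remaining probe set 1417375_at had signals of 7.0 and 5.9, below the floor on both arrays. Counted as measured, with its ratio set by the floors, it lowered the value of Tuba4a to 0.27.

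Tuba1a, an alpha-tubulin abundant in developing neurons, had signals of 309.2 and 338.3 on 1 probe set, a log2 ratio of 0.13 (probe set SD 0.17). Tuba8, a divergent alpha-tubulin, had signals of 23.5 and 29.2, below the median on both arrays, and was not counted as measured. The gamma-tubulin Tubg1, which nucleates microtubules, had signals of 166.4 and 187.9 on 1 probe set, a log2 ratio of 0.18 (probe set SD 0.25). For Tuba1a and Tubg1 the difference from 0 was smaller than the probe set SD, while for Tuba4a and Tubb5 it was larger than their own. These SDs are between probe sets on the same arrays and hold no error between arrays.

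In total, 9 of the 12 probe sets and 6 of the 8 genes were measured. All 9 measured probe sets had a log2 ratio above 0, against 49.5% of all measured probe sets with 1 symbol, and so did the 6 genes, against 50.2% of all measured genes. The median of the 6 genes was 0.29 and that of all 7137 genes 0.0012. These counts and the median of 0.29 include Tubb2a, which was chosen with its difference known. Its dimmer probe set was below the control median, so it could count as measured only by being higher with oleanolic acid. Without Tubb2a, the 5 other measured genes and all their measured probe sets were also above 0, and the median of these genes was 0.24. The series' design text considered genes whose log2 ratio was over 1.5 or under -1.5. Of the 6 genes 0 passed it (0.392% of all genes), and above 1 there was 1, Tubb2a (0.392% of all genes above 1). No test stands behind these counts, since each array was hybridized once and isotypes read on the same arrays are not replicates.

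The log2 ratio of Tubb2a, known when the genes were chosen, lay 1.23 above the median of the 5 other measured isotypes (0.24) and 1.01 above the highest of them, Tuba4a. The others ran from 0.13 to 0.45, within the central 95% of all measured genes, which ran from -0.56 to 0.51. In descending order the log2 ratios were those of Tubb2a, Tuba4a, Tubb6, Tubb5, Tubg1 and Tuba1a. From Tuba4a downwards, neighbours in this order differed by less than the larger of their probe set SDs. The highest single measured probe set of the other isotypes was Tuba4a 1417374_at at 0.52.

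**Figure D2:**
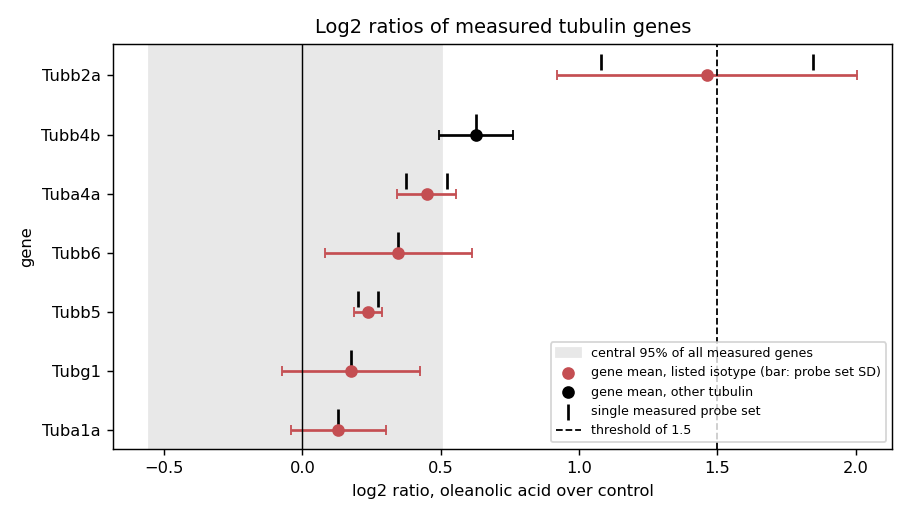
Log2 ratio, oleanolic acid over control (horizontal axis), of the 6 measured isotypes (red) and of Tubb4b (black), with bars for the probe set SD and ticks for single measured probe sets. The grey band is the central 95% of all measured genes and the dashed line the threshold of 1.5. Tubb2a lies at 1.46 with its probe sets at 1.08 and 1.85, and the other named isotypes lie inside the band.

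Cross-hybridization between isotypes bears on how far each signal belongs to its gene. By Affymetrix naming, a probe set ending in _s_at has probes that match more than 1 transcript, which may be of different genes, one ending in _x_at has some probes that match other sequences closely, and one ending in _a_at reads alternative transcripts of a gene. Of the 12 probe sets, 8 end in _at, 2 in _a_at, 1 in _s_at (the brighter Tubb2a probe set) and 1 in _x_at (Tuba1a). Probe sequences were not used here, so the share of each isotype in a signal was not tested. With _x_at and _s_at probe sets left out, Tubb2a was at 1.08 on 1427838_at alone, a probe set that passed through the oleanolic acid array, and the other isotypes ran from 0.18 to 0.45 with Tuba1a lost.

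Signals of relatives are listed beside the _s_at probe set. Signals are not compared between probe sets, so a dim or bright relative does not show what the _s_at probe set reads. The Tubb2b probe set was at 10.1 on both arrays. Among other beta-tubulins, 1416256_a_at of Tubb5 had signals of 714.7 and 863.8, and 1423642_at of Tubb4b had 766.6 and 1184.4. The 3 probe sets of Tubb2a-ps2, a transcribed pseudogene, had signals between 0.3 and 14.9 over both arrays. A further 5 probe sets carried a member's symbol beside that of a pseudogene and entered no gene value. Of these 5, 2 were measured, both ending in _x_at and annotated to alpha-tubulins, with log2 ratios of 0.14 (signals of 2683.0 and 2947.1) and 0.04 (170.5 and 175.7). As a class, the 869 measured _s_at probe sets had a median log2 ratio of -0.0053, and 2 of them, the Tubb2a one included, were above 1.5.

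**Figure D3:**
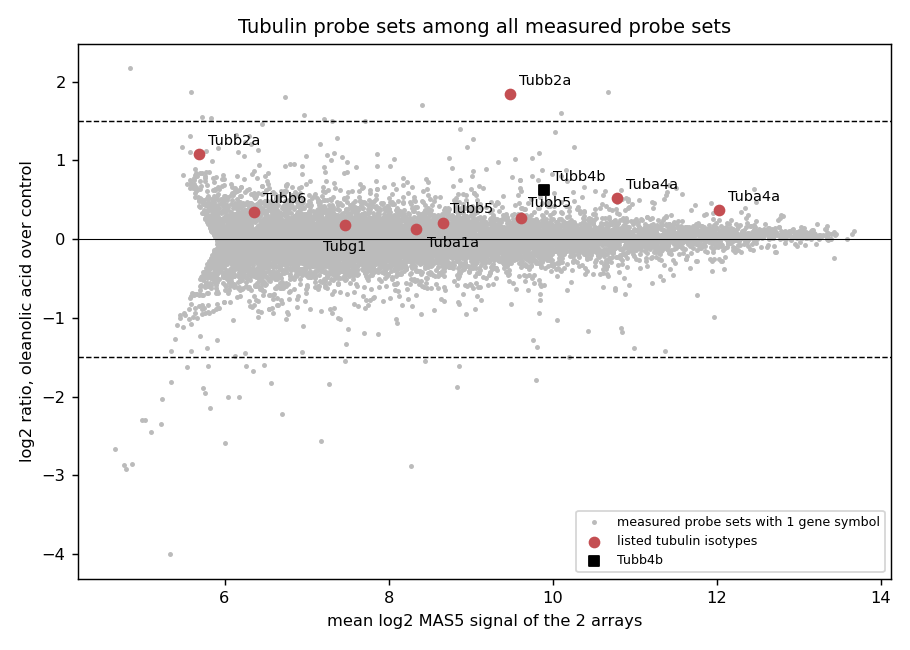
Log2 ratio, oleanolic acid over control (vertical axis), against the mean log2 MAS5 signal of the 2 arrays (horizontal axis) for the 10707 measured probe sets with 1 symbol (grey), with the 9 measured probe sets of the named isotypes in red and Tubb4b as a black square. Dashed lines mark 1.5 and -1.5. The brighter Tubb2a probe set, at 1.85, is above the upper line, and the other red points lie below it.

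Of 10 further tubulin genes looked up, 6 had a probe set of their own symbol and 1 was measured. Tubb4b, a class IV beta-tubulin found in most tissues, had signals of 766.6 and 1184.4 on 1423642_at, a log2 ratio of 0.63 (probe set SD 0.13), above every named isotype except Tubb2a. Above 0.5 lay 2.63% of all measured genes, and Tubb4b, like Tubb2a, lay outside the central 95% of them. Its 5 other probe sets, with signals between 0.4 and 59.2, were below the medians and not measured. Among them 1456078_x_at had signals of 13.0 and 44.6 and 1438622_x_at signals of 16.8 and 9.2, in opposite directions. Tubd1, the delta-tubulin of centrioles, had signals of 59.7 and 30.6, just below the median in the control array. Tubb3, Tubb4a and Tubg2 had no signal above the floor on either array, and Tuba3b had signals of 14.5 and 14.8.

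Genes that fold, modify, bind or move along tubulin were centred near 0. Of 24 measured folding genes, among them the subunits of the chaperonin CCT, prefoldin and the tubulin cofactors, 24 lay within 0.5 of 0, with a median of -0.01 and a range from -0.47 to 0.23. The 7 measured genes of tubulin modification ran from -0.39 to 0.49 with a median of 0.02. The 7 measured genes of the gamma-tubulin complex and its anchors, partners of Tubg1, ran from -0.33 to 0.09 with a median of -0.16. Of these 7, 5 were below 0, against 49.7% of all measured genes. Among all measured genes, 2.63% were above 0.5 and 3.24% below -0.5.

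Microtubule-binding and severing proteins had a median of 0.02 over 19 measured genes, with 18 within 0.5 of 0. Map7, which binds microtubules and recruits kinesin, was the exception at 0.56 ± 0.44 (SD, n = 2 probe sets). Kinesin, dynein and dynactin genes had a median of 0.02 over 24 measured genes, and Kif22, a chromosome-bound kinesin, lay at -0.53 (probe set SD 0.27) with signals of 102.6 and 71.2. Actin and intermediate filament genes, the other filament systems, had 20 of 20 measured genes within 0.5 of 0 and a median of 0.06. None of these lists held a gene past 1 in either direction, a size that 1.02% of all measured genes passed.

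Proliferation genes, which are often read beside tubulins because the mitotic spindle is built from them, mostly had log2 ratios below 0. Of 29 genes with a probe set 10 were measured, and 8 of these were below 0, against 49.7% of all measured genes, with a median of -0.33. The G1 cyclin genes Ccne1 (-0.88) and Ccnd1 (-0.69 ± 0.16, SD, n = 3 probe sets) and the replication helicase genes Mcm4 (-0.51 ± 0.27, SD, n = 2 probe sets) and Mcm2 (-0.51) lay below -0.5, as did 3.24% of all measured genes. Ccne1 (signals of 64.5 and 35) and Mcm3 (72.3 and 59.0) counted as measured through the control array alone, where they were higher. With both arrays required to reach the median, a setting added after seeing the data, 6 of 8 genes were below 0 and the median was -0.34. The 2 measured genes above 0 were Mcm7 (0.10) and Cenpa (0.03). Of the unmeasured genes of the list, 6 were at the floor on both arrays, Bub1, Bub1b, Aurkb, Plk1, Tyms and Cenpe. The median of the measured proliferation genes was below 0 and that of the tubulin isotypes above 0. The part of proliferation in the tubulin values was not tested.

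**Figure D4:**
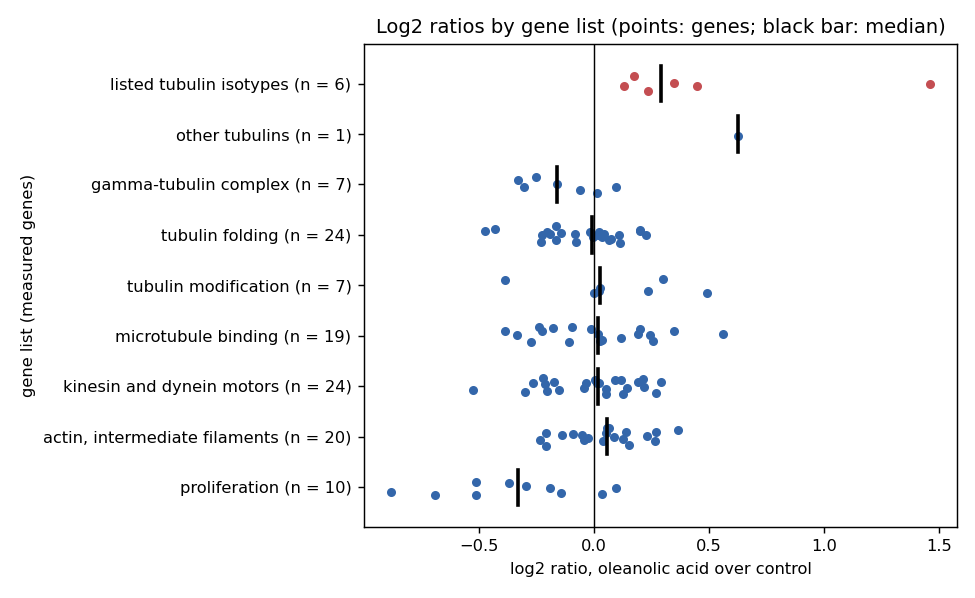
Log2 ratio, oleanolic acid over control (horizontal axis), of each measured gene (points) in the tubulin isotypes and 8 related gene lists, with the list median as a black bar and the number of genes beside each name. Tubb2a at 1.46 lies apart from every other point drawn. The folding, modification, binding and motor lists are centred near 0, and the proliferation list has a median of -0.33. The list of xenobiotic receptors, their targets and stress genes is not drawn. It holds Cyp2b9 (1.81) and Gadd45b (1.61), both above Tubb2a.

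The 5 measured genes with log2 ratios nearest to that of Tubb2a over the 2 arrays were Spon2 (1.46), Cldn1 (1.41 ± 0.19, SD, n = 2 probe sets), Ndufb1 (1.55), Acnat2 (1.57) and Clpx (1.60). Spon2 encodes a secreted matrix protein, Cldn1 a tight junction protein, Ndufb1 a subunit of respiratory complex I, Acnat2 a peroxisomal acyltransferase and Clpx a subunit of a mitochondrial protease. Spon2 (signals of 53 and 146.2) and Ndufb1 (31 and 90.6) counted as measured through the oleanolic acid array alone, where they were higher. With 1 array per diet, likeness means a similar ratio of 2 signals and no more.

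Markers of other cell types were read beside the tubulins, since a pooled liver RNA holds all cells of the tissue and fewer cells of a type and less RNA per cell cannot be told apart. Hepatocyte markers were measured for 10 of 10 genes with a probe set, with summed signals of 131383 and 135777. Of the neuron and nerve markers, 0 of 8 were measured and 7, Tubb3 among them, were at the floor on both arrays, with summed signals of 69.9 and 72.0. Cholangiocyte markers had summed signals of 159.7 and 168.1 with 1 of 6 measured and Cftr at the floor, and the measured one, Epcam, had signals of 63.1 and 32.9 (log2 ratio -0.94). Neutrophil markers had summed signals of 291 and 356.4 with 2 of 7 measured, and Elane and Camp at the floor. Endothelial markers had summed signals of 5953 and 6017 with 10 of 11 measured, stellate cell and fibroblast markers 8178 and 7943 with 10 of 13, and macrophage markers 19609.6 and 18464 with 11 of 11. Markers of exocrine pancreas (2258 and 1014, 9 of 9 measured), of B and plasma cells (1594 and 482, 2 of 5) and of adipocytes (939.9 and 422, 3 of 6) were lower in the oleanolic acid array, opposite to the tubulins. Those of T and NK cells (236.7 and 155.4, 1 of 8) were lower as well, and the 3 erythroid genes, of which 1 was measured, had 411.6 and 395.9. Retn, Cd79a, Cd8a, Cd4 and Hba-a1 were at the floor on both arrays. Several of the lower markers counted as measured through the control array alone, where they were higher. Among them were Cpb1 of the pancreas (76.5 and 18.7), Jchain of plasma cells (133.9 and 43.8) and Epcam. The summed signals use every probe set of a list, measured or not. The clock genes Per3 and Dbp, chosen after their values were seen, were at -1.84 and at -1.23 ± 0.06 (SD, n = 2 probe sets). The clock gene Arntl went the other way, at 1.87 with signals of 25.3 and 92.5. It counted as measured through the oleanolic acid array alone, where it was higher. The labels do not say at what time of day livers were taken. The part of cell content or collection time in the tubulin values was not tested.

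**Figure D5:**
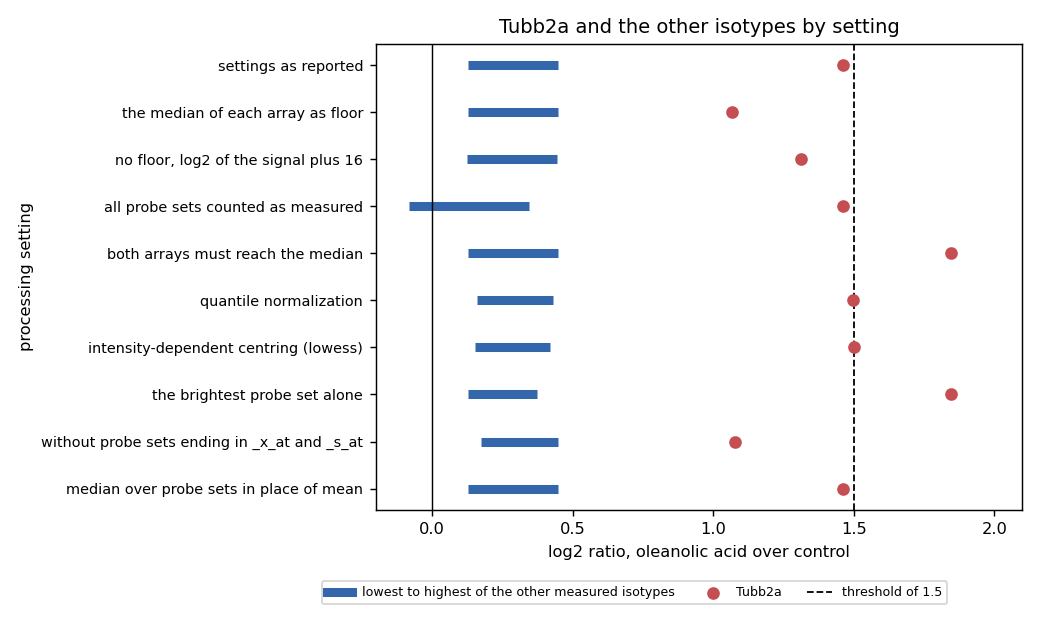
Log2 ratio, oleanolic acid over control (horizontal axis), of Tubb2a (red points) and the range of the other measured isotypes (blue bars) under the settings as reported and 9 alternatives (rows), with a dashed line at 1.5. Tubb2a lies between 1.07 and 1.85 and to the right of the blue bar in each row. With all probe sets counted as measured the bar starts at -0.08, the value of Tubb2b, which the floors of the arrays set.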

How the data were processed

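The authors deposited linear intensities, 1 per probe set and array, from MAS5, as named without a version in the submitters' processing notes. For each diet, 1 pooled RNA was hybridized. The mean after trimming 2% at each end was 300.1 on both arrays, from the values, so no further scaling was applied. The table holds no detection calls. Of 22690 probe sets, 64 are Affymetrix controls; 20380 carried 1 symbol, of which 20351 matched RefSeq (GRCm38.p6) by gene identifier, 691 carried several and 1555 none, and the last 2 kinds entered no gene value.

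Log2 ratios, the floor, the filter and the gene means were computed as given in the text with Python 3.11.15, pandas 2.3.3, numpy 2.4.6 and statsmodels 0.14.6, and tested on simulated data. The threshold of 1.5 is that of the submitters' design text. MAS5 can also compute a log ratio from probe pairs, and that value may differ from the ratio of deposited signals used here. The pooled SD between probe sets was 0.27, 0.25, 0.17 and 0.13 in 4 bands of rising signal. It covers differences between probe sets of a gene read on the same arrays. Labelling or hybridization error shared by a whole array is not in it, and neither is variation between mice. The number of arrays limits the precision. The members and gene lists were chosen with earlier results of these data known. Genes were named by rule: every member, up to 4 genes per list past 0.5, the 5 genes nearest to Tubb2a, and cell type markers as counts and sums. Apoe, the proliferation genes within 0.5 of 0 or not measured, and the cell type markers named singly lie outside this rule. Other tubulins and the clock genes were named after their values were seen. Alternatives covered the floor, the filter, the normalization and the choice of probe sets.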

Additional observations from a re-analysis of the deposited data

How the results depend on the processing

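Tubb2a had the highest log2 ratio of the measured isotypes under all 9 alternatives, between 1.07 and 1.85, and lay 0.79 to 1.61 above the median of the others. The low end came from the median of each array as floor (1.07) and from leaving out probe sets ending in _x_at and _s_at (1.08), and the high end from requiring both arrays to reach the median and from the brightest probe set alone (1.85 each). Of the 2 Tubb2a probe sets, 1427347_s_at alone was above 1.5, at 1.85. The gene mean under the settings used here, 1.46, is below 1.5, so the count of isotypes past the threshold is 0. It was 1 with both arrays required to reach the median, with intensity-dependent centring (Tubb2a at 1.50), with the brightest probe set alone and with a threshold of 1. Of 44 values of the 5 other measured isotypes under alternatives, 44 were above 0 and 43 moved by less than their probe set SD. The exception was Tuba4a, at 0.27 with no filter on dim probe sets. Many of these values could not move, so the counts say little about stability. A gene with 1 probe set above both medians keeps its log2 ratio under the higher floor, the filters and the brightest probe set. A median over a pair of probe sets equals their mean. For this reason, and because both its probe sets were already measured, Tubb2a stayed at 1.46 with that median and with no filter. Across all genes, those above 1.5 and below -1.5 numbered 8 and 20 under the settings used here. They numbered 5 and 5 with the higher floor or with both arrays at the median, 4 and 11 with log2 of the signal plus 16, and 10 and 34 with no such filter. No paired analysis was possible because each diet has 1 array. With no detection calls, dim signals cannot be separated from background.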

Other observations

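Beside the tubulins, 22 genes of xenobiotic receptors, their targets, antioxidant enzymes and stress response were looked up, and 17 were measured. Their median was -0.0077, and 15 lay within 0.5 of 0. Cyp2b9, a cytochrome P450 more highly expressed in the liver of females, read 57.0 units for control and 199.8 for oleanolic acid, a log2 ratio of 1.81 with a probe set SD of 0.27. The stress-inducible gene Gadd45b was at 1.61 ± 0.14 (SD, n = 2 probe sets). These 2 were the list members past 1.5, a size passed in either direction by 0.392% of all measured genes. Cyp2b9 was below the median of the control array and counted as measured through the oleanolic acid array alone, where it was higher. Cyp2b9 has close relatives, and the part of cross-hybridization in its signal was not tested.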
